A study of Mus musculus with 12 samples.

Results

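CTCF peaks at 34 genes of lung development were examined in brain, heart and lung of mouse embryos. A peak was taken as a member when its summit lay in the body of one of these genes or within 20 kb of it. Peaks from all lists that overlapped were merged into sites, and 125 of 56248 merged sites were members. The series held 12 samples, with 1 CTCF ChIP library (6 in all) and 1 input library (6 in all) for each tissue of each genotype. All were late-gestation E18.5 embryos of the C57BL/6 background (substrain N in the study's methods), and either wild type or homozygous mutant for Ctcf R567W, a germline edit made with CRISPR/Cas9 that is carried in all tissues. Human HEK293T chromatin, from an embryonic kidney cell line, had been added in equal amounts to all groups. With 1 library per group no test within a tissue was possible, and every ratio within a tissue compares 2 libraries rather than 2 conditions. Genotype was tested once, over the 3 tissues.

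CTCF binds DNA through zinc fingers and stops the cohesin complex, so that pairs of its sites form the feet of chromatin loops and the borders of domains. Its zinc fingers read a core motif, and at some sites further fingers read an upstream motif on the 5′ side of the core. In the lung before birth, branching signals between mesenchyme and epithelium have shaped the airway tree, and the distal epithelium is turning into alveolar type 2 cells, which make surfactant, and flat alveolar type 1 cells, which exchange gas. The 34 genes were placed in 6 role groups, which are surfactant and lamellar body genes, alveolar type 1 genes, airway genes, epithelial transcription factors, growth factor signalling and mesenchymal transcription factors. CTCF occupancy does not measure expression, so the tissue labels could not be checked against expression markers.

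The strength of a peak is given as its summit pileup, the number of reads stacked over the summit. Pileups were divided by the genome background of their library, the mean stack expected at random, before libraries were compared. Where 2 values are given for a tissue, the first is wild type and the second mutant. A site without a peak in a list was not called there, which does not show that CTCF was absent. The 6 lists held 11515 to 44386 regions, with median summit pileups of 29 to 55 reads and lowest listed pileups of 7 to 9. The local background at member peaks was 2.21 times the genome background in wild-type lung and 1.00 to 1.21 times in the other 5 lists. Over all peaks of the wild-type lung list it was 2.38 times. Over the top quintile of all peaks by pileup it was 6.97 times in wild-type lung and 1.11 to 1.42 times in the other 5 lists. The part of the local background in the lung results was not tested.

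Sequences with an upstream motif are shown first, because lung ratios are described by that motif below. These 8 sites had a core motif with an upstream motif 5 or 6 bp before it and a peak in both lung lists, and this selection was made with their values known. Capitals mark the upstream match, on the left, and the core match, on the right. The upstream motif was searched as TGCAGTNCC with up to 2 mismatches in the 30 bases 5′ of the core match and on its strand. Each sequence is read 5′ to 3′ on the strand of the core motif, in GRCm38. The Pdpn sites lie at chr4:143248254-143248302, chr4:143280382-143280430 and chr4:143311543-143311591 on the minus strand. The Abca3 site lies at chr17:24391307-24391355, the Lamp3 site at chr16:19666477-19666525 and the Lpcat1 site at chr13:73513386-73513434, all on the plus strand. The Fgfr2 site lies at chr7:130267300-130267348 on the minus strand and the Foxf1 site at chr8:121104203-121104251 on the plus strand.
Pdpn downstream: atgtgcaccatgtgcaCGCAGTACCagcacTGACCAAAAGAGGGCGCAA
Pdpn intron: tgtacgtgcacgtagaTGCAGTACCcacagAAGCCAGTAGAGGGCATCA
Pdpn upstream: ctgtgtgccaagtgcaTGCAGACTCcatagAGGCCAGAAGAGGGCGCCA
Abca3 intron: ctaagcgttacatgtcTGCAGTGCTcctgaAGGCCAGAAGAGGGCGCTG
Lamp3 intron: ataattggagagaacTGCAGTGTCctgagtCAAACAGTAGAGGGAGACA
Lpcat1 intron: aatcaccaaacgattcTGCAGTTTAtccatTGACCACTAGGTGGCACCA
Fgfr2 upstream: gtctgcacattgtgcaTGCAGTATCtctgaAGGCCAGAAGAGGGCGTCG
Foxf1 downstream: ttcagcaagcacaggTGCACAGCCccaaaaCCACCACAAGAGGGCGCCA

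A second set shows core motifs, in capitals, at sites that led their role group in wild-type lung, that lost their lung peak in the mutant, or that stood high in lung over brain. The Id2 site lies at chr12:25092393-25092441, the Aqp5 site at chr15:99596120-99596168 and the Foxj1 site at chr11:116319132-116319180, all on the plus strand. The intronic Hopx site at chr5:77089482-77089530 is on the plus strand and the downstream Hopx site at chr5:77071182-77071230 on the minus strand. The Cav1 promoter site at chr6:17307613-17307661, the Foxa2 site at chr2:148048642-148048690 and the Sftpb site at chr6:72319192-72319240 are on the minus strand, and the farther Sftpb site at chr6:72326503-72326551 is on the plus strand. The Abca3 promoter site at chr17:24351905-24351953, on the minus strand, also held an upstream match, 16 bp before its core, which is left in lower case.
Id2 downstream: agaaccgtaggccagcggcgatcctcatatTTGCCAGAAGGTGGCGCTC
Aqp5 downstream: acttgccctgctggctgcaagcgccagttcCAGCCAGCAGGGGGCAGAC
Foxj1 downstream: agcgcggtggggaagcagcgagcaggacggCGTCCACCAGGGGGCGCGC
Abca3 promoter: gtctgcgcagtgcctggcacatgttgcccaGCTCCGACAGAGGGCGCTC
Hopx intron: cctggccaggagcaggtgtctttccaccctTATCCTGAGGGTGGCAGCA
Hopx downstream: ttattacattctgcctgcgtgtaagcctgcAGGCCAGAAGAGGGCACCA
Cav1 promoter: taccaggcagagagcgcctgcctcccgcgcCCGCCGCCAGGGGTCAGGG
Foxa2 upstream: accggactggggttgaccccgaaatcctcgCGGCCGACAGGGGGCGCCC
Sftpb near: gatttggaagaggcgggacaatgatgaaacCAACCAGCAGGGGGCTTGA
Sftpb far: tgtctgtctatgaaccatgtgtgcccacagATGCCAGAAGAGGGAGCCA

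The core motif was less frequent at these genes than over the genome. It was found within 100 bp of the summit at 72 of 125 member sites, or 57.6% with a Wilson 95% interval of 48.8 to 65.9, against 74.5% of all sites and 63.3% (55.5 to 70.4) of the sites at 40 other lung genes, chosen for their roles in airway, vessel and signalling biology. Windows of the same length 1100 bp away held it in 4.56 to 4.70% of peaks. An upstream motif stood before 18 of the 72 core motifs (25%), against 27.1% over all sites, while 12.6 to 13.5% of cores held a match on the mirrored side. The core motif lay on the strand of its gene at 39 of the 72 sites. Of the 125 sites, 53 were in introns, 32 within 1 kb of a gene start, 26 between genes and 14 in exons, counted over all annotated genes, and 4 of the intronic sites lie upstream of Fgfr2 inside a transcript that runs far past that gene. Distances from a start are from the nearest annotated start of the gene, on any of its transcripts. At 22 sites the start was that of a member, and 8 of these 22 held a core motif.

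Wild-type lung had the most sites of the 6 lists. Member sites with a peak numbered 67 in wild-type brain, 74 in mutant brain, 37 in wild-type heart, 22 in mutant heart, 94 in wild-type lung and 71 in mutant lung. The 94 lung sites came from 95 peak regions, 2 of which merged into 1 site. A peak was listed for 29, 27, 25, 14, 30 and 29 of the 34 genes in the same order of lists. Wild-type lung had more sites than wild-type brain at 17 genes and fewer at 1, Scgb3a2, and at the 40 other lung genes it had more at 20 and fewer at 3. Over all peaks its list was also longer than that of wild-type brain, with 44386 against 36034 regions. Fgf10, a mesenchymal growth factor that drives branching, Wnt2, a mesenchymal Wnt ligand, and Tbx4, a transcription factor of the lung mesenchyme, had no site in any list. Per 100 kb of gene body and flanks, sites were densest at Foxf1 (18.3) and Napsa (16.5), and among genes with a site thinnest at Gata6 (1.36) and Foxp2 (1.38).

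**Figure D1:**
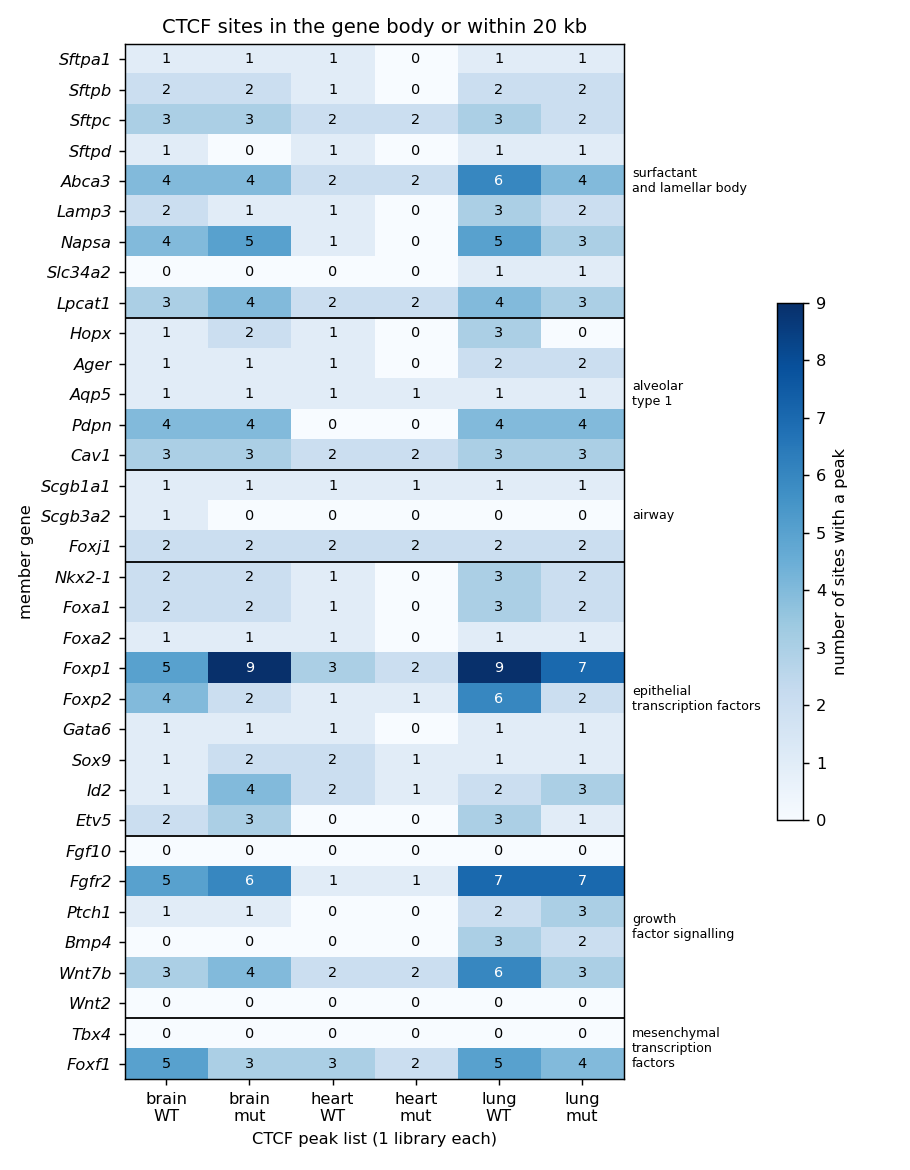
Number of CTCF sites with a peak in the gene body or within 20 kb, for each of the 34 genes (rows, by role group) in each of the 6 peak lists (columns, 1 library each). The 3 rows of zeros are Fgf10, Wnt2 and Tbx4, Bmp4 has peaks in the lung lists only, and the mutant heart column is empty for 20 genes.

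A large share of wild-type lung sites had no wild-type peak in the other organs. Of the 94 sites, 39 lacked a wild-type brain peak (41.5%, against 29.8% of all) and 59 a wild-type heart peak (62.8%, against 53.2%). In both lists 36 were missing, which is 38.3% (29.1 to 48.4), and the share over all wild-type lung sites was 27.8%. Near any protein-coding gene it was 28.2%, and at the 40 other lung genes it was 32.5% (37 of 114). The member share stood above the background, but the wild-type lung list was also the longest. When the 3 wild-type lists were cut to equal length by their q-values, 3 of 37 sites remained without a brain or heart peak, or 8.11% against 7.53% of all sites. With the lists cut in this way the member share was thus close to the background.

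The sites found only in wild-type lung were weak, as over the whole list, and poor in core motifs. Their 37 peak regions had a median summit pileup of 22 reads and a median width of 236 bp, against 78.5 reads and 370 bp for the 58 regions that overlapped a wild-type brain or heart peak. Over all peaks the same values were 19 reads and 237 bp for lung-only regions, and 87 reads and 364 bp for shared ones. A core motif was present at 12 of the 36 lung-only sites (33.3%, 20.2 to 49.7), compared with 62.9% of all lung-only sites. At the 40 other lung genes it was 19 of 37 (51.4%, 35.9 to 66.6), an interval that overlaps that of the members. Among the 58 wild-type lung sites shared with brain or heart it was present at 50 (86.2%, 75.1 to 92.8), compared with 85.9% over all sites. By role, 12 of the lung-only sites were at growth factor signalling genes, 11 at epithelial transcription factors, 8 at surfactant and lamellar body genes, 3 at alveolar type 1 genes and 2 at Foxf1. Airway genes had none. Relative to the genome background, the local background had a median of 1.53 at the lung-only regions and 3.49 at the shared ones.

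**Figure D2:**
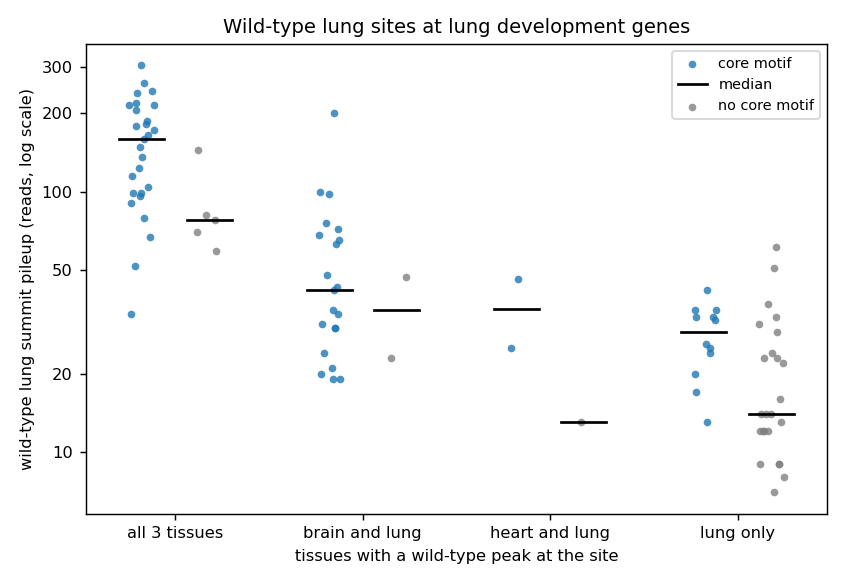
Wild-type lung summit pileup (reads, log axis) of the member sites, by the tissues that also had a wild-type peak and by whether a core motif was found; each point is 1 site and bars are medians. Sites in all 3 tissues reach 305 reads and mostly hold a core motif, while the 36 lung-only sites stay at or below 61 reads and mostly lack one.

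Sites present in all 3 wild-type organs were fewer than over the genome. They were 32 of the 108 sites with any wild-type peak, or 29.6% (21.8 to 38.8), against 40% of all such sites. Of these 32 sites, 3 had no mutant peak in brain (6.43% of all such sites), 13 had none in heart (46.3%) and 2 had none in lung (6.63%), and 19 (59.4%) were also in all 3 mutant lists, and 53.4% of all such sites were. Wild-type heart had 2 sites without a wild-type lung peak out of 37 (2.34% of all), and wild-type brain had 12 out of 67 (13.7% of all). Those 12 were found in brain alone (11.1% of wild-type sites, against 9.64% of all), and 5 of them had no mutant peak in any tissue.

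At sites with both wild-type peaks, the lung pileup relative to genome background was a median of 1.91 times that of brain over all sites. The 55 member sites had a median log2 ratio of 0.95, close to the 0.94 of all sites. By fold enrichment, which divides by the local background, the median lung value was 0.883 times that of brain at the 55 sites and 0.869 times over all sites, and lung was higher at 22 of the 55, so that the direction depended on the scaling. At 6 of the 55 sites the ratio was at least 2-fold above the median of all, where 5.85% of all sites were, and at 3 it was at least 2-fold below, against 6.2%. At the 40 other lung genes 2 of 76 sites were above. Against heart, where the median ratio over all sites was 4.79, none of 35 member sites was 2-fold above (0.636% of all) and 1 was 2-fold below (4.81%), a site of 13 reads in lung and 8 in heart within 20 kb of Abca3. By fold enrichment the median lung over heart ratio was 1.38 at the 35 members and 1.51 over all sites. The 6 sites above, named after their values were seen, were at 5 genes and are given with their groups.

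Most wild-type brain peaks at members were also in the mutant list, and in heart and lung many were missing from it. In brain 55 of 67 wild-type regions were overlapped by a mutant region, or 82.1% (71.3 to 89.4) against 81.5% of all regions. In heart the count was 20 of 37, or 54.1% (38.4 to 69.0) against 50.6%. In lung it was 59 of 95, or 62.1% (52.1 to 71.2) against 67%. The all-peak share lay inside each of these intervals, which cover counting error only. At the 40 other lung genes the shares were 83.1%, 56.4% and 69.0%.

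**Figure D3:**
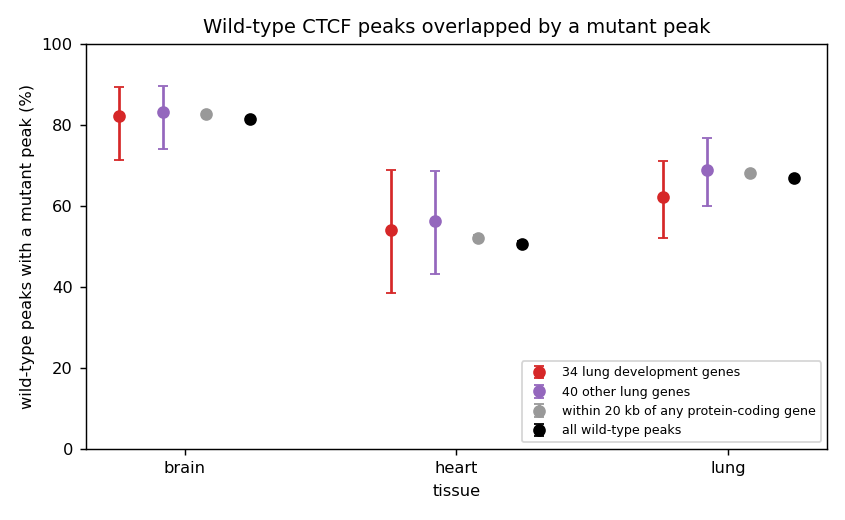
Percentage of wild-type CTCF peak regions overlapped by a mutant region in brain, heart and lung, for the 34 lung development genes, 40 other lung genes, peaks within 20 kb of any protein-coding gene and all peaks; bars are Wilson 95% intervals, for counting error only. In each tissue the member interval covers the value of all peaks, with brain highest at 82.1%.

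List length moved with these shares. With the 2 lists of a tissue cut to equal length, the retained share of members was 79.0% in lung, 82.1% in brain and 84.2% in heart, where all regions had 81.1%, 80.5% and 71.3%. Counted as sites, 36 of 94 in wild-type lung had no mutant peak (33.1% of all), 17 of 37 in heart (49.3%) and 12 of 67 in brain (18.7%). In lung the peaks that went missing were mostly the ones absent from the other organs. Of the 36 lung-only sites 28 had no mutant lung peak (77.8%, against 70.4% of all), and of the 58 shared sites 8 had none (13.8%, against 18.7%). The median relative pileup in wild-type lung was 15.4 at sites not retained and 50.5 at retained sites. New mutant regions made up 19 of 74 in brain (25.7%, against 24.5%), 2 of 22 in heart (9.09%, against 7.12%) and 13 of 71 in lung (18.3%, 11 to 28.8, against 9.11%). At the 40 other lung genes the lung share was 12.2% (6.96 to 20.6), with overlapping intervals.

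Where both genotypes had a peak, the pileup ratio at members was close to that of all sites in each tissue. In lung the 58 shared member sites had a median log2 ratio, mutant over wild type, of −0.33, where all sites had −0.36. The 55 sites of brain had 0.09, where all had −0.04, and the 20 sites of heart had −0.11, where all had −0.25. With the authors' fold enrichment the lung median was 0.86 at members and 0.61 over all sites, and with undivided pileups the heart median was 0.035, so that both signs depended on the scaling. Of the 38 members lower in mutant lung by relative pileup, 24 were higher by fold enrichment, and 14 were lower by both. In whole tissue, fewer cells with CTCF on a site and less CTCF per cell cannot be told apart. At least 2-fold below the median of all were 2 of 55 sites in brain (10.5% of all), 2 of 20 in heart (3.06%) and 2 of 58 in lung (11.4%). At least 2-fold above were 3 of 55 in brain (3.7%), none of 20 in heart (0.877%) and 1 of 58 in lung (2.03%).

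Genotype was tested over the tissues with limma, with tissue as a block and 1 effect of the mutant taken as common to the 3 tissues, a fit added after the data had been seen. It ran on the log2 relative pileup of the 10442 sites with a peak in all 6 lists, with 2 residual degrees of freedom. Sites missing from any list were not in the fit. The tissues served as the replicates of genotype, so the p-values measure agreement between tissues and not variation between animals. At a Benjamini-Hochberg adjusted p below 0.05, 1148 sites were called (11%), 1074 of them lower in the mutant, and 2 of the 19 members were. The called members were the site 16589 bp upstream of Wnt7b, at a log2 of −0.96 ± 0.23 (SE, adjusted p of 0.000777 in limma), and the strongest Foxf1 site, at −0.85 ± 0.23 (adjusted p of 0.00361 in limma). Each was lower in the mutant of 3 of 3 tissues by relative pileup, but the brain ratio of the Foxf1 site, 0.888, had an interval (0.679 to 1.16) that includes 1. By fold enrichment both were lower in brain and heart and higher in lung (log2 of 1.89 and 1.58). Without heart neither member was called (495 sites were), without lung the Foxf1 site was not (199 sites were), and with undivided pileups neither was (293 sites were). With fold enrichment limma called 0 of the 10442 sites, 188 had an unadjusted p below 0.05, and the Wnt7b and Foxf1 values turned to 0.05 and 0.41.

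**Figure D4:**
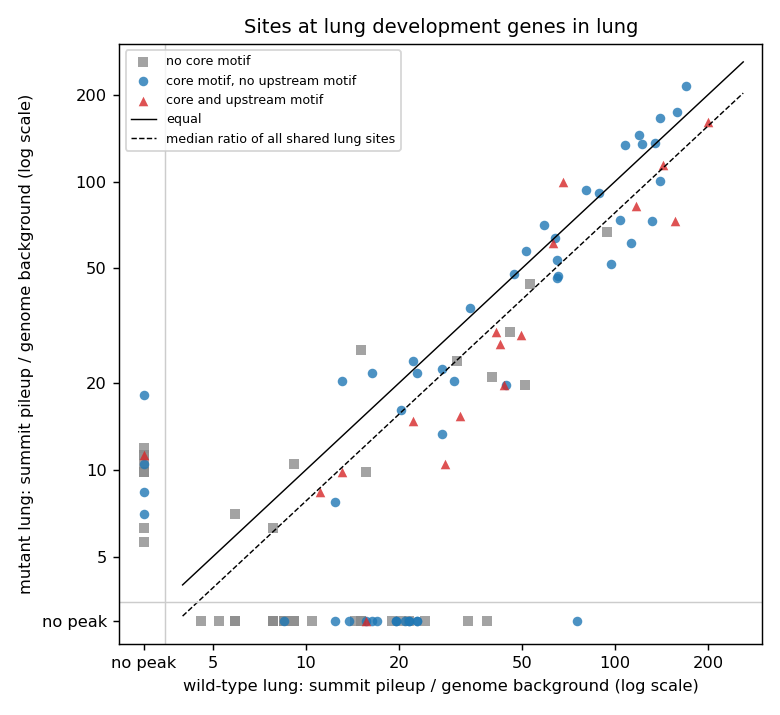
Summit pileup divided by genome background in mutant lung (vertical) against wild-type lung (horizontal), both on log axes, for member sites by motif class; sites with a peak in 1 genotype lie in the "no peak" strips. The solid line is equality and the dashed line the median of all shared lung sites, and most sites with an upstream motif lie at or below the dashed line.

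In lung the mutant to wild-type ratios were lower where an upstream motif stood before the core. With core and upstream motif, 15 of 16 wild-type lung sites were retained (64.8% of all such sites), with a median log2 ratio of −0.51. With a core motif alone, 32 of 46 were retained (74.8% of all) and the median was 0.01. Over all sites the corresponding medians were −0.64 and −0.29. On the fold enrichment scale the medians at members were 0.30 and 1.22, and those over all sites 0.60 and 0.71. At the 8 sites printed first, with the motif 5 or 6 bp before the core, the log2 ratios ran from −1.42 to −0.45 with a median of −0.83, against −0.79 over all sites of that spacing. By fold enrichment the median of the 8 was −0.09, and the Lpcat1, Foxf1 and Lamp3 sites among them were above 0 (1.62, 1.58 and 0.30). At the 7 sites with another spacing they had a median of −0.33 and reached 0.55. Without a core motif, 11 of 32 sites were retained (34.4%, against 47.6% of all).

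Whether the lung peak was retained went with the upstream motif in the opposite order at members and in the whole series, with overlapping intervals at members. Among core-motif sites of wild-type lung it was 15 of 47 where the peak was retained (31.9%, 20.4 to 46.2) and 1 of 15 where it was not (6.67%, 1.19 to 29.8). Over all sites the shares were 25.6% and 35.7%. The 1 site was 15133 bp upstream of Wnt7b, with 24 reads in wild-type lung. In brain the order at members was that of the whole series, with 11 of 45 retained and 4 of 5 not retained sites holding the motif, against 26.6% and 36.9%. In heart it was 5 of 17 retained and 3 of 13 not retained sites, or 29.4% and 23.1%, against 22.9% and 31.0% over all sites.

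Surfactant and lamellar body genes held 34 sites. Peaks were listed at 26 and 19 sites in lung, 20 and 20 in brain, and 11 and 6 in heart. Of the 26 wild-type lung sites 10 had no mutant peak (33.1% of all wild-type lung sites). Of the 26, 8 were lung-only, and over all lung-only sites 70.4% had no mutant lung peak. The 16 sites with both lung peaks had a median log2 ratio of −0.32, which turned to 1.11 by fold enrichment. The strongest was 104 bp before the start of Abca3, the lipid transporter of lamellar bodies (chr17:24351950-24410201, plus strand). Its pileups were 305 and 229 reads in lung, 178 and 364 in brain, and 46 and 66 in heart. It was the strongest member site in wild-type lung, and the relative ratio of mutant to wild type was 0.805 (95% interval 0.675 to 0.959) in lung and 1.72 (1.44 to 2.07) in brain, with both intervals for counting error only. By fold enrichment the lung log2 ratio turned to 1.47, and that of brain was 0.21.

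Within Abca3 the intronic site with an upstream motif had the lowest log2 ratio of relative pileup among shared lung sites of at least 20 reads. It had 43 reads in wild-type lung and 15 in mutant lung, a log2 ratio of −1.42 (−0.23 by fold enrichment), and 21 reads in wild-type brain with no mutant brain peak. A neighbouring intronic core site 25566 bp from the start, without an upstream match, had 98 and 91 reads in lung and 48 and 52 in brain. Lamp3, a membrane protein of lamellar bodies, had a similar intronic site. Its pileups were 25 reads in wild-type brain, 23 in wild-type heart, 67 in wild-type lung and 28 in mutant lung, without a peak in mutant brain or heart. Its lung ratio was 0.448 (0.277 to 0.706), while fold enrichment gave a log2 of 0.30.

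The surfactant protein genes Sftpa1, Sftpb, Sftpc and Sftpd had 1, 2, 3 and 1 wild-type lung sites, and kept their lung peaks with 1 exception, at Sftpc. None of these sites was lung-only. Of all wild-type lung sites shared with brain or heart, 18.7% had no mutant lung peak. The difference was not tested. Sftpa1 and Sftpd encode collectins of airway defence. The Sftpa1 site, 3589 bp upstream, had 99 and 76 reads in lung, 43 and 41 in brain, and 20 in wild-type heart. The Sftpd site, 22270 bp from the start and past the 3′ end, had 21 reads in wild-type brain, 26 in wild-type heart, and 96 and 87 in lung. It had no mutant peak in brain or heart, and its lung pileup was 5.10 times that of brain in wild type (3.16 to 8.62) by relative pileup and 1.78 times by fold enrichment.

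Sftpb, a surfactant protein without which newborn lungs cannot inflate, had both its sites past its 3′ end, inside Usp39. The nearer had 99 and 66 reads in lung, 26 and 29 in brain, and 26 in wild-type heart. The farther had 100 and 67 reads in lung, 22 and 32 in brain, and none listed in heart. Both stood high in wild-type lung over brain, by 4.25 times (2.74 to 6.82) and 5.07 times (3.17 to 8.45) in relative pileup and by 1.44 and 2.71 times in fold enrichment, and both had a mutant to wild-type log2 ratio of −0.48 in lung, against 0.95 and 0.19 by fold enrichment. Sftpc, the type 2 cell marker whose product is found in surfactant, was flanked by 3 sites, of which the 1 in Bmp1 (15 and 21 reads in brain, 21 in wild-type lung) lost its lung peak. The Sftpc site in Lgi3 had 219 and 162 reads in lung, 100 and 130 in brain, and 40 and 40 in heart. The site 3390 bp from the Sftpc start had 72 and 189 reads in brain, the highest brain ratio of relative pileup among the members (2.21, 1.68 to 2.94), and the third highest by fold enrichment.

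Of the remaining surfactant and lamellar body genes, Napsa, a protease that processes surfactant proteins, had 9 sites. It lost 4 of its 5 wild-type lung peaks while gaining 2, and 3 of the 5 were lung-only. Of all wild-type lung sites 33.1% had no mutant lung peak, and of lung-only ones 70.4%. The retained Napsa site, 11139 bp upstream, had 159 and 105 reads in lung, 95 and 78 in brain, and 32 in wild-type heart. A site 17707 bp upstream of Napsa had 15 reads in mutant lung and no other peak. Lpcat1, an enzyme that makes surfactant phospholipid, kept 3 of 4 wild-type lung peaks. Its intronic site with an upstream motif had 179 and 117 reads in lung, 112 and 135 in brain, and 41 and 35 in heart. Slc34a2, the phosphate transporter of type 2 cells, had 1 lung site in each genotype, of 25 reads in wild type and 8 in the mutant, and they were different sites.

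Alveolar type 1 genes held 15 sites, with 13 and 10 in lung, 10 and 11 in brain, and 5 and 3 in heart. The median lung ratio of the 9 shared sites was the lowest of the 6 role groups, with a log2 of −0.64, and on the fold enrichment scale it was 0.15, again the lowest. Of these 9 sites 4 were at Pdpn, and the −0.64 was the value of the Pdpn intron site. Pdpn, the podoplanin gene (chr4:143267431-143299564, minus strand), had 4 sites, all with core and upstream motifs and none with a peak in heart. In lung the pileups were 34 and 21, 76 and 42, 65 and 39, and 48 and 22 reads, taken from the 3′ flank to the 5′ flank. The log2 ratios were −0.59, −0.76, −0.64 and −1.03, all below the lung median of −0.36. By fold enrichment they were 0.00 or lower at 3 of the 4 sites (−0.54, −0.48 and 0.00) and 0.63 at the site with 76 reads, where all sites had 0.61. In brain the pileups at the same sites were 25 and 30, 29 and 42, 45 and 57, and 34 and 22 reads, so that 1 of 4 log2 ratios was far below 0 (−0.87) and the rest were 0.02, 0.29 and 0.09. Of these 4 sites, 3 are among the sequences printed first and the site with 76 reads had its upstream match 1 bp before the core.

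Hopx, a homeodomain protein of type 1 cells (chr5:77086988-77115121, minus strand), was the only member gene with wild-type lung peaks and no mutant lung peak. The intronic site, 5723 bp from the nearest annotated start, had 52 and 14 reads in brain, 29 in wild-type heart and 115 in wild-type lung, and no peak in mutant heart or lung. It was the strongest wild-type lung member site without a mutant lung peak. The brain ratio was 0.227 (0.116 to 0.416). Both remaining lung sites of Hopx lay past its 3′ end, had 35 and 32 reads in wild-type lung and no peak in any other list. Over all lung-only sites 70.4% had no mutant lung peak. In mutant brain 1 weak peak of 11 reads was listed at the Hopx promoter.

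Aqp5, the water channel of type 1 and glandular cells, had 1 site, which was the strongest of its group. Its pileups were 187 and 193 reads in lung, 143 and 157 in brain, and 51 and 57 in heart, and the lung ratio of relative pileup was 1.11 (0.900 to 1.36). By fold enrichment the lung log2 ratio was 2.06, so that the size depended on the scaling. At the promoter of Cav1, a caveolar coat protein of type 1 and endothelial cells, the site had 165 and 191 reads in lung, 32 and 65 in brain, and 26 and 31 in heart. Its wild-type lung pileup, relative to genome background, was 5.75 times that of brain (3.92 to 8.69) and 7.22 times that of heart. By fold enrichment lung was 1.5 times brain and 1.09 times heart, and the site with the highest lung over brain value on that scale was the farther Sftpb site. A Cav1 site past the 3′ end had 104 and 142 reads in lung, 88 and 115 in brain, and 31 and 36 in heart, a lung log2 ratio of 0.55, or 1.31 by fold enrichment. Its upstream motif was 9 bp before the core. The remaining Cav1 site, 7814 bp from the start, had 19 reads in wild-type lung, 16 in wild-type brain and none listed in heart. It was lower in the mutant by fold enrichment, with a log2 of −1.30 in lung and −0.16 in brain. The lung value was the lowest of the shared member lung sites on that scale. Ager, a receptor abundant on type 1 cells, had a site in Ppt2 with 148 and 74 reads in lung, 43 and 53 in brain, and 36 in wild-type heart, 3.84 times brain in wild type by relative pileup and 0.908 times by fold enrichment. Its lung log2 ratio was −0.90, and 0.15 by fold enrichment.

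**Figure D5:**
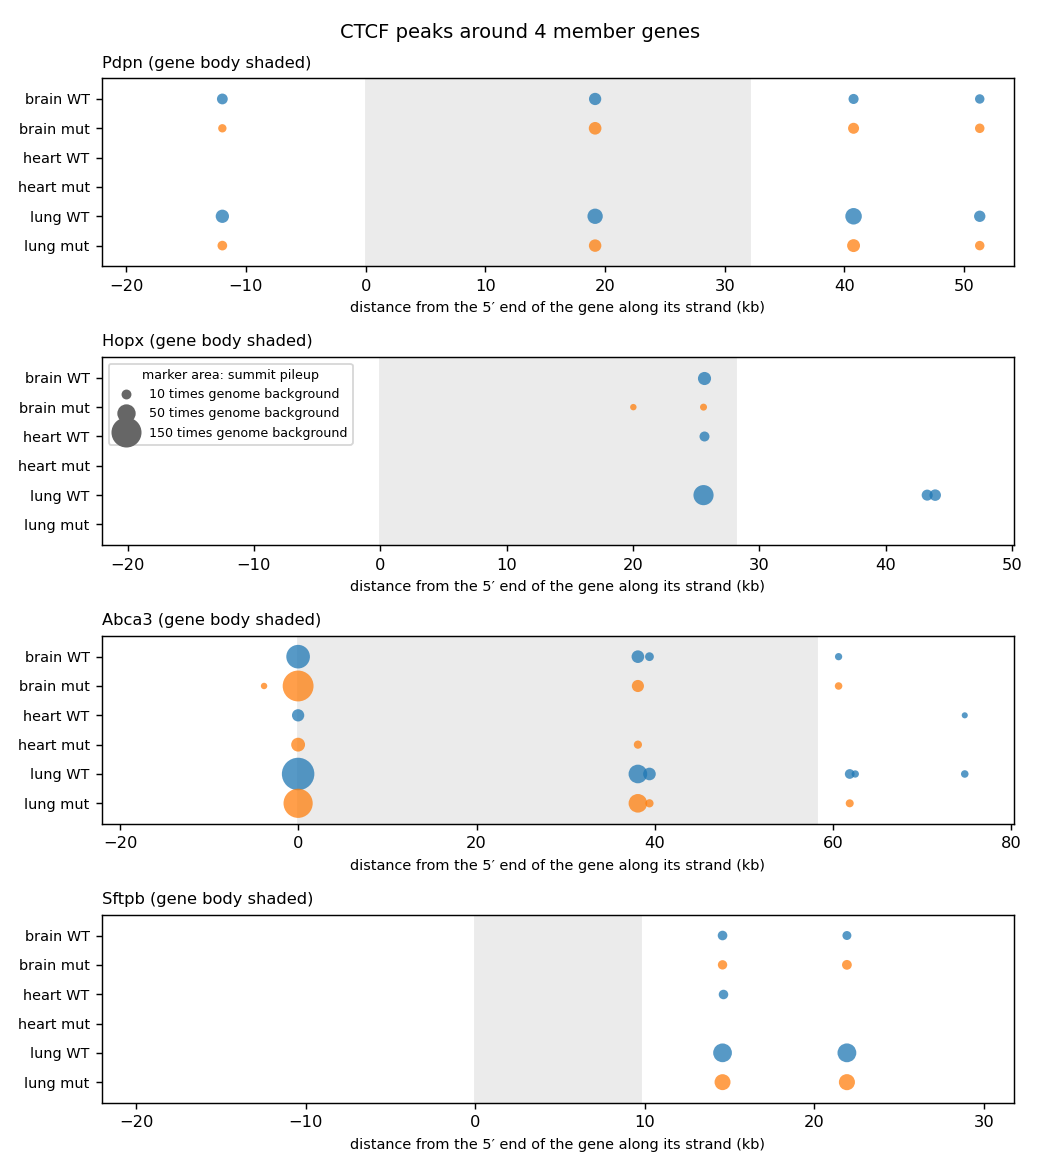
CTCF peaks around Pdpn, Hopx, Abca3 and Sftpb in the 6 lists (rows), by distance in kb from the 5′ end of the gene along its strand; gene bodies are shaded and marker area is the summit pileup over genome background. Pdpn keeps 4 lung sites in both genotypes and has none in heart, Hopx has no mutant lung peak, and both Sftpb sites are larger in lung than in brain.

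Airway genes had few sites. Those in lung were kept, and of all sites in the 3 wild-type lists 6.63% had no mutant lung peak. Foxj1, the master regulator of motile cilia, had a downstream site with 243 and 249 reads in lung, 140 and 245 in brain, and 51 and 70 in heart. Its promoter site had 81 and 63 reads in lung, 44 and 83 in brain, and 14 and 23 in heart. Scgb1a1, the secretory protein of club cells, had 1 site, with 214 and 237 reads in lung, 102 and 142 in brain, and 46 and 45 in heart. All 3 sites were in all 6 lists, and the median lung log2 ratio was 0.14, or 1.81 by fold enrichment. Scgb3a2, another airway secretory protein, had 1 peak of 18 reads in wild-type brain and none in lung.

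Epithelial transcription factors held 39 sites, with 29 and 20 in lung, 19 and 26 in brain, and 12 and 5 in heart. Of the 29 wild-type lung sites 13 had no mutant peak, where 33.1% of all had none. Of the 29, 11 were lung-only, and over all lung-only sites 70.4% had no mutant lung peak. The strongest was 3645 bp from the start of Id2, a helix-loop-helix inhibitor of distal progenitors, with 260 and 306 reads in lung, 169 and 314 in brain, and 46 and 55 in heart. Its lung ratio was 1.26 (1.07 to 1.49) and its brain ratio 1.57 (1.29 to 1.90). By fold enrichment the log2 ratios were larger, at 3.16 in lung and 1.32 in brain. The Id2 start itself had peaks in the mutant lists only, of 20 reads in brain and 16 in lung, and no core motif.

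Nkx2-1, the factor that specifies lung epithelium, had 3 sites. The upstream site, 4377 bp from the start, had 172 and 87 reads in lung, 104 and 67 in brain, and 40 in wild-type heart, with a log2 ratio of −0.88 in both brain and lung, and of 1.19 in lung by fold enrichment. The downstream site had 42 and 39 reads in brain and 30 in wild-type lung, was 2-fold below the lung over brain median of relative pileup, and had no mutant lung peak. By fold enrichment its lung over brain ratio was 0.771, near the 0.869 of all sites. Foxa1 and Foxa2 are pioneer factors of endoderm. The Foxa2 site, 1678 bp upstream, had 123 and 133 reads in lung, 27 and 58 in brain, and 24 in wild-type heart, and its wild-type lung pileup was 5.08 times that of brain (3.33 to 8.02), against 1.35 times by fold enrichment. The Foxa1 promoter site had 79 and 82 reads in lung, 39 and 49 in brain, and 25 in wild-type heart, while a site 2403 bp upstream had 51 reads in wild-type lung only.

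Foxp1 and Foxp2, forkhead repressors of the airway epithelium, are the longest gene bodies of the list and held 12 and 8 sites. Foxp2 lost 5 of 6 wild-type lung peaks, and 3 of the 6 were lung-only. Of all wild-type lung sites 33.1% had no mutant lung peak, and of lung-only ones 70.4%. The strongest Foxp2 site, 4210 bp upstream at chr6:14896962-14897290, had 53 reads in wild-type brain, 19 in wild-type heart and 59 in wild-type lung and no mutant peak in any tissue. It was the only one of the 32 sites shared by the 3 wild-type organs that no mutant list held, and it had no core motif. An intronic Foxp2 site had 37 reads in wild-type lung only, and another had 20 reads in mutant brain and 12 in mutant lung only. Foxp1 had 9 and 7 sites in lung, 5 and 9 in brain, and 3 and 2 in heart. An internal Foxp1 start had mutant peaks alone, of 27 reads in brain and 15 in lung, and the intronic site at chr6:99265175-99265490 had 31 and 50 reads in brain and 23 and 37 in lung, the highest lung log2 ratio of relative pileup at 20 reads or more (0.79, a ratio of 1.72 with an interval of 0.998 to 3.04). By fold enrichment its log2 ratio was 0.74, below that of other members, of which the Id2 site 3645 bp from the start was highest at 3.16.

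Gata6, a zinc-finger factor of the distal epithelium, had 1 site, at its promoter and without a core motif. The pileups were 78 and 28 reads in lung, 35 and 29 in brain, and 23 in wild-type heart, a lung log2 ratio of −1.38 (ratio 0.385, 0.241 to 0.60) that turned to 0.78 by fold enrichment. Etv5, a target of FGF signalling at the branching tips, had an intronic core site with 68 and 28 reads in lung, 39 and 53 in brain, and none listed in heart, a lung log2 ratio of −1.18, and of −0.33 by fold enrichment. In brain the same Etv5 site had a ratio of 1.15 (0.743 to 1.78). Sox9, a marker of distal tip progenitors, had a site 2217 bp upstream in all 6 lists, with 144 and 95 reads in lung, 101 and 143 in brain, and 43 and 30 in heart. Both the Gata6 and the Sox9 site lacked a core motif at the threshold used.

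Growth factor signalling genes held 25 sites, with 18 and 15 in lung, 9 and 11 in brain, and 3 and 3 in heart. Wnt7b, an epithelial Wnt ligand, had the strongest, 16589 bp upstream, with 214 and 143 reads in lung, 120 and 77 in brain, and 39 and 15 in heart. Its ratios were 0.541 (0.401 to 0.726) in brain, 0.347 (0.178 to 0.644) in heart and 0.716 (0.576 to 0.889) in lung. The Wnt7b promoter site, 758 bp before the start, had 182 and 206 reads in lung, 93 and 198 in brain, and 46 and 40 in heart. The log2 ratios in lung were −0.48 at the far site and 0.28 at the promoter site, of opposite sign, and by fold enrichment 1.89 and 2.25, with the same sign at both.

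Fgfr2, the epithelial receptor for Fgf10, held 10 sites, with 7 and 7 in lung, 5 and 6 in brain, and 1 and 1 in heart. A site 7096 bp upstream had 201 and 104 reads in lung, 80 and 33 in brain, and none listed in heart. Its log2 ratio was −1.52 in brain and −0.85 in lung, and fold enrichment gave −0.87 and 1.53. Within the Fgfr2 body, an intronic site with 42 and 19 reads in the lung lists had no peak in brain or heart, and a second had 20 and 29 reads in lung alone, a log2 ratio of 0.64 whose ratio interval (0.850 to 2.90) includes 1. Bmp4, a morphogen of the distal tip, had peaks only in lung. The exonic Bmp4 site had 61 and 30 reads and was the strongest lung-only site of all members, and the others had 17 and 12 reads and 9 reads in wild type alone. Ptch1, the hedgehog receptor, had 2 wild-type and 3 mutant lung sites with none in common, all of 14 to 22 reads. Both wild-type sites were lung-only, and of all such sites 70.4% had no mutant lung peak.

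Among mesenchymal factors only Foxf1, a target of hedgehog signalling, had sites. It held 8, with 5 and 4 in lung, 5 and 3 in brain, and 3 and 2 in heart. The strongest, 19856 bp from the start and in an intron of Mthfsd, had 238 and 104 reads in lung, 111 and 117 in brain, and 44 and 20 in heart. It held an upstream motif, and its log2 ratios were −0.17, −1.28 and −1.09 in brain, heart and lung, and by fold enrichment −0.08, −0.25 and 1.58 in the same order. A second Foxf1 site 8477 bp from the start, with a core motif alone, had 205 and 194 reads in lung, 103 and 136 in brain, and 49 and 47 in heart. The lung log2 ratio there was 0.02, a ratio of 1.01 (0.829 to 1.24), against 0.468 (0.368 to 0.592) at the strongest site. By fold enrichment the log2 ratio was 1.80 here, close to that of the strongest site. At the Foxf1 start 3 weak peaks of 7, 9 and 10 reads were listed in lung, the first 2 in wild type and the third in the mutant.

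Mutant-only sites numbered 17 of 125, or 13.6%, against 13.1% of all sites. By tissue, 8 were in brain alone, 6 in lung alone and 3 in both, and 7 of the 17 held a core motif (41.2%, against 52.9% of all mutant-only sites and 23.5% of those at the 40 other lung genes). The strongest had 27 reads. Of the 22 sites at a member promoter, peaks were listed at 12 and 13 in lung, 8 and 13 in brain, and 7 and 5 in heart. Among the 40 other lung genes, 35 had a wild-type lung peak and 33 a mutant one, and 18 had fewer lung sites in the mutant, as did 14 of the 34 members.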

How the data were processed

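CTCF ChIP-seq peak lists of 6 libraries were used, and the 6 input libraries gave no list. Per the study's methods, Trim Galore removed adapters, Bowtie2 placed the reads on the joined mm10 and hg38 genomes, unique reads with MAPQ above 30 were kept, and the authors ran MACS2 with default options on the mouse reads of each library. The control library of each list was not given in the sources used here. Spike-in factors, derived from human summits with wild type as reference, scaled the study's coverage tracks and not these lists, and were not used here. In the deposited lists, fold enrichment is the ratio of summit pileup to local background, p-values and q-values are −log10 values, the deposited score, unused here, is a scaled q-value, and the summit is given as an offset from the region start.

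Summit pileup and local background were recovered from the deposited fold enrichment and −log10 p with a pseudocount of 1, and 100% of lines gave whole reads within 0.01. Lines of 1 region were counted once, regions overlapping by at least 1 bp were shared, and the lowest local background of a list gave its genome background. Genes were GENCODE M21 records on GRCm38. The Fgfr2 record runs on to 133123350 through 1 transcript, so the end of the others, 130266263, was used. A core motif matrix of 19 columns was learned from 1907 sites of strong peaks and called at a p of 1e-04. Intervals are Wilson (shares) and exact conditional binomial (ratios) at 95%, for counting error only, since reads without molecular identifiers are not independent. The 1 test was limma 3.58.1 (R 4.3.3) on log2 relative pileup, with tissue and genotype as terms, a mean-variance trend and Benjamini-Hochberg adjustment over all sites in the 6 lists. Methods were tested on simulated data. Tools were samtools 1.23.1, pysam 0.24.0, scipy 1.17.1, matplotlib 3.10.9, pandas 2.3.3 and numpy 2.4.6 under Python 3.11.15.

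The genes, lists and rules were chosen with earlier results of these data known. Sites described in full were, by rule, the strongest wild-type lung site of each role group, the 5 strongest wild-type lung sites without a mutant lung peak, the 5 strongest without a wild-type brain or heart peak, sites in all 3 wild-type lists missing from at least 2 mutant lists, the 5 strongest mutant-only sites, and the 3 largest falls and 3 largest rises in lung at 20 reads or more. All other sites named were chosen after their values were seen.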

Additional observations from a re-analysis of the deposited data

Results flagged for a closer look

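The change in the number of listed member sites from wild type to mutant went in opposite directions between tissues. By net count lung lost the most (−23), heart changed by −15 and brain by 7 sites. The difference between tissues was not tested, since each group had 1 library. The lists of all peaks moved the same way, from 36034 to 38390 regions in brain, from 21059 to 11515 in heart and from 44386 to 32498 in lung. As a share, heart had the most wild-type member sites without a mutant peak (45.9%), then lung (38.3%) and brain (17.9%). Over all sites the shares were 49.3%, 33.1% and 18.7%. At shared sites the log2 ratio of mutant over wild-type pileup also differed in sign, with medians of −0.332 for lung, −0.112 for heart and 0.0945 for brain, and this was not tested either. Over all shared sites the medians were −0.36, −0.25 and −0.04 in the same order. The member median turned to 0.86 in lung with fold enrichment and to 0.035 in heart with undivided pileups.

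The local background at the member peaks of wild-type lung, a value outside the comparisons, had a median of 2.21 times the genome background, while it was 1.00 to 1.21 times in the other lists. Its part in the lung results was not tested.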

How the results depend on the processing

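Of 109 alternative values 79 stayed within a set fold of the main count, or within the interval of the main share or median. Another 28 moved and 2 changed sign. The median log2 ratio in heart became 0.035 with undivided pileups, which also gave 0.34 in brain, and the lung median became 0.86 with the authors' fold enrichment, whose denominator is the local background. At 50 kb the sites with a peak were 158 and 118 in lung, 111 and 120 in brain, and 69 and 38 in heart (wild type, mutant), with 63 in all 3 wild-type tissues. With the Fgfr2 record as annotated, chosen after seeing the data, they were 184 and 133, 131 and 146, and 73 and 38, with 63 in all 3. More sites enter both by construction. With lists cut to equal length the retained share was 84.2% in heart and 79.0% in lung, and the lung-only share was 8.11%. With at most 1 mismatch in the upstream motif the shares holding it were 12.8% where retained and 0% where not retained. The libraries were paired by tissue, the labels having no replicate numbers. Limma with tissue as a block, added after seeing the data, called 1148 sites and 2 members, 293 and 0 with undivided pileups, 0 and 0 with fold enrichment, and 199 to 1678 and 0 to 2 when leaving out 1 tissue. Pileups near the lowest listed value of 7 to 9 reads limit what a missing peak shows.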
